A study of Mus musculus with 4 samples.

Results

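The rod phototransduction cascade was followed here through 9 genes, chosen by name from the 32285 genes of the count matrices, and all 9 were detected. They were the transducin subunit genes Gnat1, Gnb1 and Gngt1, the phosphodiesterase subunit genes Pde6a, Pde6b and Pde6g, the channel gene Cnga1, the exchanger gene Slc24a1 and the arrestin gene Sag. The data were Visium spatial transcriptomes, in which a tissue section lies on a grid of barcoded spots and each spot can hold several cells or parts of cells. The 4 frames held cryosections of fresh-frozen posterior eyes of C57BL/6J mice, 1 frame for each of 4 biological replicates in the labels. All 4 frames carry the treatment label Naive+AAV2/2, where AAV2/2 is an adeno-associated virus vector, so no frame can be set against another as treated or untreated. The study's design text names vectors that express Wif1 and a control vector with GFP, but the labels do not assign them to frames, and they give no age. Comparisons were therefore made between groups of spots within the same frames.

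In a rod, light leads to activation of the G protein transducin. Its alpha subunit, made from Gnat1, leaves the beta and gamma subunits, made from Gnb1 and Gngt1, and releases the catalytic phosphodiesterase subunits of Pde6a and Pde6b from their inhibitory subunit, made from Pde6g. The enzyme then lowers cyclic GMP, and the channel built from the Cnga1 and Cngb1 products closes. The exchanger encoded by Slc24a1 keeps extruding calcium from the outer segment, and arrestin, encoded by Sag, helps to end the light signal. Most of these genes are used by rods alone or nearly so, whereas Gnb1 is expressed in neurons and many other cell types.

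The promoter windows of 4 members are shown because the RNAs of these genes varied together over groups of spots. Gnb1 is among them because it differed least of the members between photoreceptor and ganglion spots. Each window runs from 250 bases before to 50 bases after a transcription start given by RefSeq, on the gene's strand. RefSeq windows were matched for 6 of the 9 members in build GRCm38.p6. The searched motifs were TAATCC, the core recognised by the photoreceptor regulator CRX, and TGCTGA, a half-site of the rod regulator NRL, on both strands, where they read GGATTA and TCAGCA. Capitals mark the matches. The windows lie at chr6:3993758-3994057 for Gngt1, at chr4:155491111-155491410 for Gnb1, at chr5:108388123-108388422 for Pde6b and at chr1:87803430-87803729 for Sag, all on the plus strand.
Gngt1: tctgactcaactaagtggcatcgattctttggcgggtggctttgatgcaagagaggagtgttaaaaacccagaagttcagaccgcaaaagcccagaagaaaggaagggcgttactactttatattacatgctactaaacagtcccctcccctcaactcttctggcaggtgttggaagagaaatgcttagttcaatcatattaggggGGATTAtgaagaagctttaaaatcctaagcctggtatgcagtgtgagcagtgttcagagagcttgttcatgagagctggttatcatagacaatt
Gnb1: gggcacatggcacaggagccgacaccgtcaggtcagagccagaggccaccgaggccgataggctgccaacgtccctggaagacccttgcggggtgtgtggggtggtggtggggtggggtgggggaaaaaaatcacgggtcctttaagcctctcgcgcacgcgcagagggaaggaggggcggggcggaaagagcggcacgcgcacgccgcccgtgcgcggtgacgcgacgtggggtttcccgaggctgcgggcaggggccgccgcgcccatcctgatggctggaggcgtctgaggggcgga
Pde6b: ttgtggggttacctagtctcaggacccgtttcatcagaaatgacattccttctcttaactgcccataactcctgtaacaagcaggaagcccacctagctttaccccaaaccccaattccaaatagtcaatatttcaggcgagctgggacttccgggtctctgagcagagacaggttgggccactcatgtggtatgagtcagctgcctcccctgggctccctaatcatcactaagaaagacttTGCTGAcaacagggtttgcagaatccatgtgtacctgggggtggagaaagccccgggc
Sag: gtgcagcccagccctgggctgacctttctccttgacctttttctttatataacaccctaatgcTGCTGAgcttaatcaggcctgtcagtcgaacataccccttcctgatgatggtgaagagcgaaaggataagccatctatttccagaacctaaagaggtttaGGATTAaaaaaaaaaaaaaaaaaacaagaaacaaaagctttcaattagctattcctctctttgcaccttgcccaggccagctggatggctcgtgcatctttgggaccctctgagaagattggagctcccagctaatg
The CRX core stood 44 bases before the start in Gngt1 and 87 bases before it in Sag, on the reverse strand in both. For Gngt1, Gnb1 and Sag the start in the RefSeq windows lies inside the annotated span of the gene. Positions are therefore counted from the start of the window's transcript and not from the first base of the gene. The NRL half-site stood 8 bases before the start in Pde6b and 187 bases before it in Sag. Cnga1, whose window is not printed, held a CRX core 228 bases before the start, and the windows of Gnb1 and Slc24a1 held neither string. The Gnb1 window had a GC content of 70.3%, against 43.7% to 51.3% in the printed windows of Gngt1, Pde6b and Sag. Of 32851 RefSeq windows of the same length, 7.06% held the CRX core, 19.5% the NRL half-site and 1.36% both. These matches describe the letters of the windows and are neither sites of binding nor a cause of any level below.

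In RefSeq (GRCm38.p6) the members lie on different chromosomes or far apart. Gnat1 lies at chr9:107674437-107679634, Slc24a1 at chr9:64922861-64951620, Gnb1 at chr4:155491300-155559269, Gngt1 at chr6:3989082-3997436, Pde6b at chr5:108388373-108431743, Cnga1 at chr5:72603696-72642752, Pde6g at chr11:120447607-120453500, Sag at chr1:87798143-87845158 and Pde6a on chromosome 18. Pseudogenes or lncRNAs overlap all of them except Gnat1, Pde6g and Sag. The strand used in counting is not given in the sources read, so reads of overlapping genes cannot be told apart.

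The 4 frames held 1201, 1243, 1056 and 1103 spots over tissue and 895894, 1066633, 885454 and 674029 UMIs (unique molecular identifiers, each standing for 1 captured transcript). Of 2458 distinct spot barcodes, 1271 occurred in more than 1 frame, as frames use the same set of positions. No frame was a copy of another: over genes, the chi-square of each pair of frames was 2.80 to 10.6 times its degrees of freedom. Frame 4 stood apart, with 8.20 to 10.6 in its pairs against 2.80 to 3.89 among the other frames and the lowest depth. The mean ratio of Gnb1 to Gnat1 in photoreceptor spots is given without it too. Other means and SDs of levels and ratios include frame 4, also where it was the lowest frame. The label names retina, but spots rich in muscle, keratin, collagen and pigment genes were present too, and the labels call the molecule nuclear RNA.

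Over all spots, the 9 genes gave 74700 UMIs. Their sum was 22454, 20023, 22512 and 19723 CPM (UMIs of the gene per 1000000 UMIs) in frames 1 to 4, a mean of 21178 ± 1512 (SD, n = 4 frames, as for all values below unless stated). The highest frame was 1.14 times the lowest. Visium reads the 3' ends of transcripts, so a level is a count of captured molecules and was not divided by length. How capture differs between genes was not tested, and it bears on every comparison of levels between genes.

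Among the transducin genes, the beta subunit gene Gnb1 gave the most UMIs of the 9 members. Gnb1 had 9214, 8096, 8498 and 6488 CPM in frames 1 to 4, and frame 4 was the lowest. The alpha subunit gene Gnat1 had 3352, 3298, 3428 and 3682 CPM. The 4 values of Gnat1 lay close together, with the highest at 1.12 times the lowest, against 1.42 times for Gnb1. The gamma subunit gene Gngt1 averaged 1107 ± 64.1 CPM. Among the phosphodiesterase genes, Pde6b had 2509, 2084, 2983 and 1666 CPM, the widest range of any member, with the highest frame at 1.79 times the lowest. Pde6a averaged 799 ± 57.9 CPM and the inhibitory subunit gene Pde6g 1209 ± 59.0 CPM, both within a narrow range. Cnga1 was the least abundant member at 282 ± 55.6 CPM. Its partner in the channel, Cngb1, which is no member, had 281 ± 18.8 CPM. Slc24a1 had 2124, 1940, 2663 and 2757 CPM, higher in frames 3 and 4 than in frames 1 and 2. Sag averaged 1586 ± 173 CPM.

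**Figure D1:**
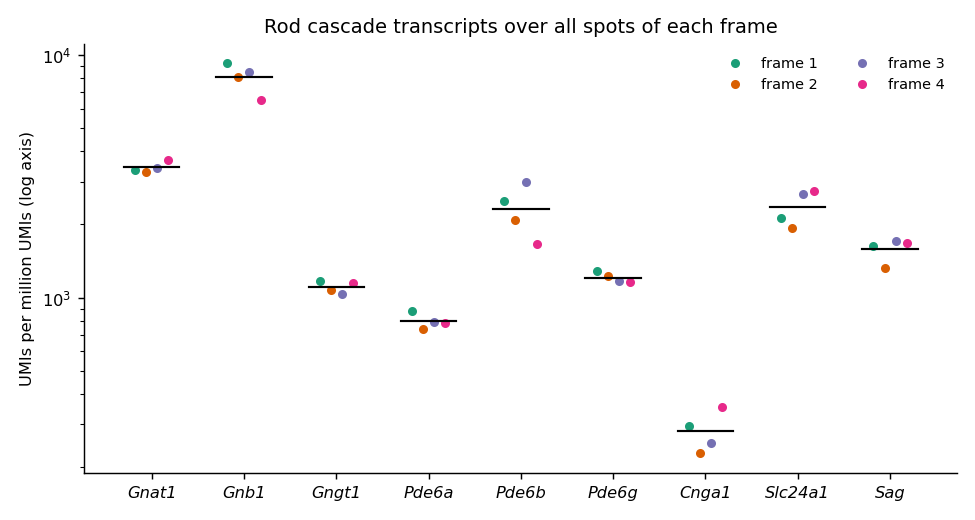
CPM of each member over all spots of a frame, on a log axis; points are the 4 frames and the black line is their mean. Gnat1, Gngt1, Pde6a and Pde6g keep close to their means, while Pde6b (1666 to 2983), Cnga1 (228 to 355), Slc24a1 (1940 to 2757) and Gnb1 (6488 to 9214) spread more widely.

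The spread between frames was set against the spread that counting alone gives. For Pde6g the SD over frames was 1.57 times the counting SD, for Gngt1 1.78 times and for Pde6a 1.90 times. For Gnb1 it was 11.9 times, for Pde6b 10.9 times and for Slc24a1 7.61 times. This ratio grows with a gene's abundance, and the frames are separate samples, so it does not rank the members. The SD as a percent of the mean was 24.5% for Pde6b, 19.7% for Cnga1, 16.9% for Slc24a1, 14.3% for Gnb1, 10.9% for Sag and 4.88% to 7.24% for the other 4. With 1 treatment label and 4 frames, what sets this variation was not tested.

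Spots were grouped by 95 marker genes of 9 tissue classes, none of them a member. A spot joined the class whose markers stood furthest above the count its depth predicts, if by at least 2 standard deviations of that count. Of 4603 spots, 966 (21.0%) became photoreceptor spots by 18 markers such as Prph2, Nrl, Nr2e3 and Rbp3, with 211 to 262 in each frame. The other large groups were 650 ganglion spots, 630 pigmented spots, 294 inner nuclear spots and 210 fibrous spots, and 1440 spots (31.3%) stayed unplaced. Median UMIs per spot were 810 in photoreceptor spots, 908 in ganglion, 671.5 in inner nuclear, 414 in pigmented and 417.5 in fibrous spots. All 18 photoreceptor markers were higher in photoreceptor spots than in the other placed spots, at 43872 CPM in sum against 7891 CPM. Spots were placed by these same markers, so this is no check of the groups. Because markers and members are genes of the same cells, the direction of the differences below is largely fixed by the grouping. Their sizes depend on the grouping too, and the edgeR p-values below take no account of this. The photoreceptor markers themselves summed to 3114 CPM in ganglion, 6071 in inner nuclear, 14066 in pigmented and 15666 in fibrous spots. The sizes are therefore a description of these groups, and what is read is how the members differ among themselves.

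Among the 5 larger groups, the cascade was most abundant in photoreceptor spots and least abundant in ganglion spots. The members summed to 52970, 48714, 44442 and 43884 CPM in photoreceptor spots, against 4022, 3247, 5055 and 3358 CPM in ganglion spots. The groups did not overlap, and between them lay fibrous spots at 19451 ± 5812 CPM, pigmented spots at 17345 ± 3629 CPM and inner nuclear spots at 8029 ± 2240 CPM. Fibrous and pigmented spots overlapped in their ranges, while every other step of this order was clear of overlap. In UMIs per spot, which is not scaled to depth, the members summed to 47.2 ± 8.72 in photoreceptor spots, 15.2 ± 5.86 in fibrous, 9.33 ± 4.42 in pigmented, 7.30 ± 2.16 in inner nuclear and 4.52 ± 1.03 in ganglion spots. Spots of tissue that should hold no rods had members' sums near these middle levels, at 14950 ± 2926 CPM in muscle and 14536 ± 5446 CPM in epithelium spots, and myelin spots had 2111 ± 1400 CPM (n = 3 frames). The fibrous and pigmented levels are near those of muscle and epithelium, and the inner nuclear level is below their means, so none of these 3 is read as rod content. Summed spots cannot tell fewer rods from less RNA per rod.

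Each member followed this order with few exceptions. For Gnat1 the means were 8234 ± 753 CPM in photoreceptor spots, 3520 ± 749 in fibrous, 2682 ± 932 in pigmented, 1047 ± 298 in inner nuclear and 336 ± 88.4 in ganglion spots. For Pde6b and Slc24a1 the pigmented mean was above the fibrous one, and fibrous and inner nuclear spots overlapped as well. For Cnga1 the pigmented and inner nuclear ranges overlapped. Of these 5 groups, ganglion spots had the lowest mean for each of the 9 genes, at 26.0 ± 19.7 CPM for Cnga1, 54.2 ± 11.2 for Pde6a, 81.4 ± 22.3 for Gngt1 and 2421 ± 273 for Gnb1. Gnb1 had the smallest step from inner nuclear to ganglion spots, with 3289 ± 500 CPM in inner nuclear and 2421 ± 273 CPM in ganglion spots, or 1.36-fold between these means, where the other members had steps between 2.22-fold and 5.51-fold.

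**Figure D2:**
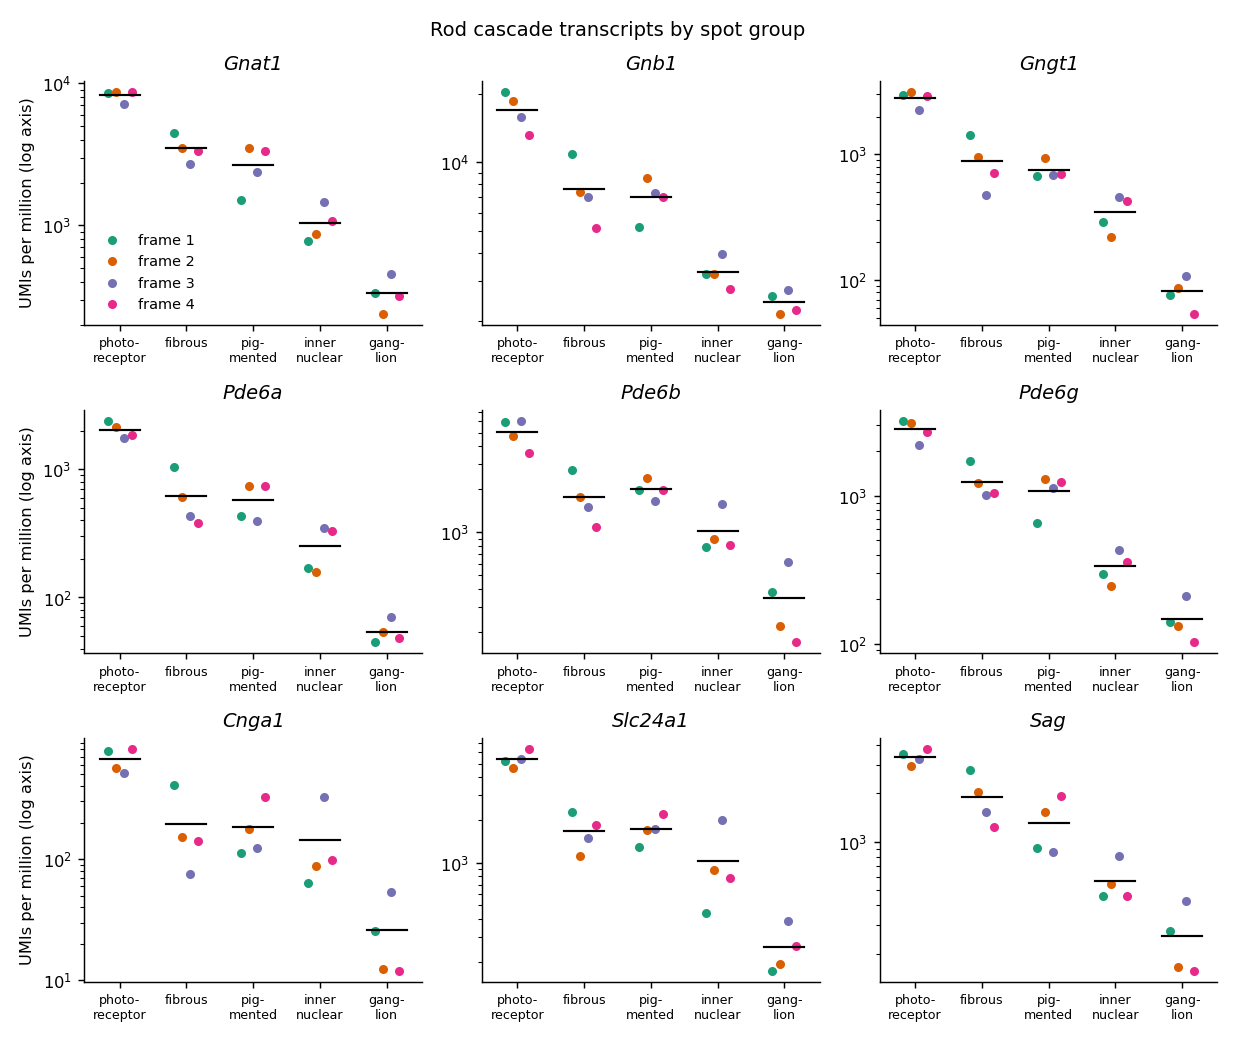
CPM of each member in 5 groups of spots, on log axes; points are the 4 frames and black lines are means. All members are highest in photoreceptor spots, and Gnb1 is the one whose ganglion level (2147 to 2725) comes close to its inner nuclear level (2747 to 3958).

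Differences between these spot groups were estimated with edgeR's quasi-likelihood test on UMIs summed per frame and spot group, with the frame as a block. Between photoreceptor and ganglion spots, 27.1% of 3104 genes tested were higher in photoreceptor spots at an adjusted p under 0.05, and 9 of 9 members were. Their median log2 fold change was 4.57, against -0.00 over all genes tested. Pde6a had 2394, 2115, 1741 and 1837 CPM in photoreceptor spots, against 44.8, 53.6, 70.1 and 48.1 CPM in ganglion spots. These ganglion levels rest on 7, 13, 13 and 8 UMIs. No frame came near to overlap, and the log2 fold change of 5.32 ± 0.20 (SE) was the largest of the members (edgeR adjusted p = 2.01e-18). Gngt1 followed at 5.22 ± 0.20, Cnga1 and Gnat1 at 4.77 each, Slc24a1 at 4.57, Pde6g at 4.39, Pde6b at 4.11 and Sag at 3.92. Gnb1 had the smallest difference, with 20435, 18719.5, 15866 and 13273 CPM in photoreceptor spots, against 2574, 2147, 2725 and 2239 CPM in ganglion spots. This is a log2 fold change of 2.95 ± 0.13 (edgeR adjusted p = 3.15e-17), and its groups did not overlap either.

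Against inner nuclear spots the differences were smaller and more even. There 15.6% of 2272 genes tested were higher in photoreceptor spots, and 9 of 9 members were, with a median log2 fold change of 2.66 against 0.02 over all genes. The members ran only from 2.44 for Pde6b and Gnb1 to 3.27 for Pde6a. Pde6g had 3237, 3125, 2219 and 2704 CPM in photoreceptor spots, against 297, 247, 431 and 360 CPM in inner nuclear spots. Its log2 fold change was 3.25 ± 0.23 (edgeR adjusted p = 1.70e-13). Cnga1 had the least certain difference, 2.50 ± 0.34 (edgeR adjusted p = 3.67e-07), with 771, 565, 514 and 807 CPM in photoreceptor spots, against 62.9, 88.3, 323 and 98.1 CPM in inner nuclear spots. The high inner nuclear value belongs to frame 3. In frame 3 the inner nuclear spots also held more photoreceptor marker RNA, 11334 CPM against 5162 to 5789 CPM in the other frames. Without frame 3 the median log2 fold change of the 9 members was 3.25. The part of the photoreceptor RNA of frame 3 in these levels was not tested.

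Against pigmented spots, grouped by genes of the retinal pigment epithelium and of pigment cells in general with Dct the most abundant, 13.5% of 2492 genes tested were higher in photoreceptor spots, and 9 of 9 members were. These were 336 genes, against 205 genes without frame 3, where the 9 members still passed. The median log2 fold change was 1.53 against 0.03 over all genes, from 1.17 ± 0.17 for Gnb1 (edgeR adjusted p = 6.01e-07) to 1.81 ± 0.26 for Cnga1 (edgeR adjusted p = 5.20e-07). Slc24a1 had 5192, 4636, 5359 and 6337 CPM in photoreceptor spots, against 1283, 1712, 1721 and 2217 CPM in pigmented spots, and its frames did not overlap. Pigmented spots held 14066 CPM of photoreceptor markers, so RNA of both gene sets was present there. How much of it came from mixed spots was not tested.

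**Figure D3:**
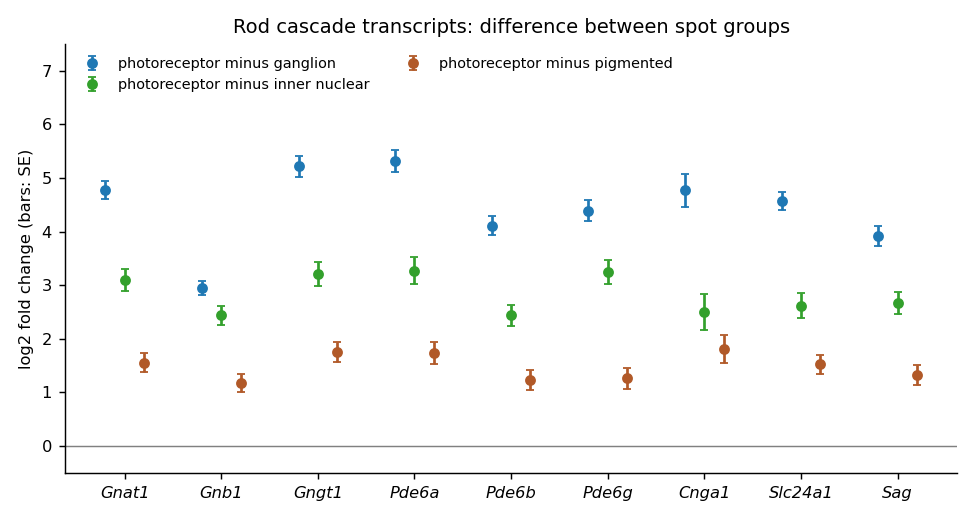
Log2 fold changes of the 9 members with standard errors from edgeR in 3 comparisons: photoreceptor minus ganglion, minus inner nuclear and minus pigmented spots. Gnb1 stands lowest against ganglion spots (2.95, where the other 8 lie at 3.92 to 5.32) and within the range of the other members against inner nuclear spots.

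The other genes of the pathway were read from lists of partners and paralogs. Of 14 rod partner genes, 12 passed the filter on low counts, and these 12 were called higher in photoreceptor spots in each of the 3 comparisons. Of all genes tested, 15.6%, 27.1% and 13.5% were higher against inner nuclear, ganglion and pigmented spots. Some partners passed the filter through photoreceptor spots, so their number of calls says nothing about the list. Among the 12, Pdc, which encodes the transducin-binding protein phosducin, differed by 4.71 ± 0.20 from ganglion spots. Cngb1 differed by 5.11 ± 0.29, with 3, 4, 6 and 2 UMIs in ganglion spots. Gnb5, the beta subunit gene of the complex that speeds transducin's turn-off and one used in other neurons too, differed by 2.46 ± 0.24, close to Gnb1. The call of the partner gene Pde6d against pigmented spots was lost without frame 1 (edgeR adjusted p = 0.126). The remaining lists were tested only in part, and genes scarce in one spot group passed the filter through the other, so the number of calls in them says nothing about a list's direction.

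Of 11 cone paralogs, 6 passed the filter against ganglion spots. Of these, 5 were called higher in photoreceptor spots, where 27.1% of all genes tested were higher. The 5 included the cone transducin gene Gnat2 and the cone phosphodiesterase inhibitor gene Pde6h. Gnat2 had 18, 12, 18 and 15 UMIs in photoreceptor spots, against 1, 0, 3 and 0 UMIs in ganglion spots. Pde6h had 80, 97, 91 and 49 UMIs in photoreceptor spots, against 5, 5, 9 and 5 UMIs in ganglion spots. Both genes were scarce in ganglion spots in every frame and passed the filter through photoreceptor spots. The cone-type exchanger gene Slc24a2, which is also expressed in the brain, was lower in photoreceptor spots by this measure (-2.12 ± 0.32, edgeR adjusted p = 2.10e-06). Against inner nuclear spots 4 of the 11 were tested and 3 were called higher in photoreceptor spots, where 15.6% of all genes tested were higher. The exception was the cone beta subunit gene Gnb3, also used by ON bipolar cells, at 0.26 ± 0.40 (edgeR adjusted p = 0.675). Against pigmented spots 3 of 4 tested were called higher in photoreceptor spots, where 13.5% of all genes tested were higher. Gngt2 and Pde6h were among these 3. The Pde6h call was lost without frame 2 or without frame 3 (edgeR adjusted p = 0.0612 and 0.0589). The Gngt2 call was lost without frame 1, 2 or 3, with DESeq2, with a z limit of 3 and with spots of at least 200 UMIs (adjusted p between 0.0674 and 0.189).

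Of 14 broadly used G protein and arrestin genes, 4 passed the filter against ganglion spots, and these 4 were called lower in photoreceptor spots, where 30.9% of all genes tested were lower. Gnas, the stimulatory alpha subunit gene, differed by -2.02 ± 0.19. Gng3, a neuronal gamma subunit gene, had 3, 4, 1 and 2 UMIs in photoreceptor spots, against 17, 47, 27 and 29 UMIs in ganglion spots, so it passed the filter through ganglion spots. The beta subunit gene Gnb2 differed by -1.47 ± 0.43 (edgeR adjusted p = 0.00427), a call that was lost without frame 2 (edgeR adjusted p = 0.0666). The other 10 genes were not tested, and they did not all have the same sign: Gng5 had 3, 6, 4 and 1 UMIs in photoreceptor spots, against 0, 5, 1 and 1 UMIs in ganglion spots. Against inner nuclear spots 4 of the 14 were tested and called lower in photoreceptor spots, where 17.6% of all genes tested were lower. The Gnas call there was lost with no filter on low counts (log2 fold change -1.07, edgeR adjusted p = 0.0525). Against pigmented spots 2 were tested, and Gnas was lower in photoreceptor spots (-1.60 ± 0.28), where 16% of all genes tested were lower.

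The subunits of transducin assemble 1 to 1 to 1 as proteins, and their RNAs were captured in other proportions. In photoreceptor spots the ratio of Gnb1 to Gnat1 UMIs was 2.40, 2.16, 2.23 and 1.54 in frames 1 to 4, with frame 4 the lowest. The mean was 2.08 ± 0.38, and 2.26 without frame 4. Gngt1 to Gnat1 was nearly the same in every frame, at 0.347, 0.361, 0.317 and 0.337. Against Gnat1, the gamma subunit RNA was thus the scarcer and the beta subunit RNA the more plentiful in all 4 frames.

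Among the phosphodiesterase RNAs, the catalytic subunit gene Pde6b gave more UMIs than its partner Pde6a in every frame. The ratio of Pde6b to Pde6a in photoreceptor spots was 2.48, 2.25, 3.49 and 1.96, or 2.55 ± 0.67, highest in frame 3 and lowest in frame 4. Pde6g to Pde6a was 1.35, 1.48, 1.27 and 1.47, a far narrower range. The catalytic subunits form a heterodimer in rods with inhibitory subunits bound to it. In RefSeq, Pde6b overlaps 3 other genes, a pseudogene and lncRNAs, and whether their reads entered its count was not tested.

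The channel RNAs stood near 1 to 1. Cnga1 to Cngb1 was 1.25, 0.729, 0.957 and 1.25 in photoreceptor spots, or 1.05 ± 0.25, so the order of the pair differed between frames. As a protein the channel holds more Cnga1 than Cngb1 subunits. The exchanger gene Slc24a1 gave 8.30 ± 1.54 UMIs for each Cnga1 UMI. The ratio of Sag to Gnat1 was 0.415 ± 0.051.

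Between spot groups, the ratios of some pairs changed far more than those of others. Gngt1 to Gnat1 was 0.340 ± 0.018 in photoreceptor spots, against 0.332 ± 0.063 in inner nuclear and 0.250 ± 0.081 in ganglion spots. Its frames overlapped between these groups, and pigmented spots overlapped too, at 0.302 ± 0.102. The ganglion ratio rests on 12, 21, 20 and 9 Gngt1 UMIs. In fibrous spots the ratio was 0.315, 0.269, 0.178 and 0.211, below every photoreceptor frame. Gnb1 to Gnat1 was 2.40, 2.16, 2.23 and 1.54 in photoreceptor spots, against 7.73, 8.98, 6.01 and 7.02 in ganglion spots. The groups were far apart in every frame, with means of 2.08 ± 0.38 and 7.44 ± 1.25. The log2 ratio differed by -1.84 ± 0.35 (SD), photoreceptor minus ganglion, and was lower in photoreceptor spots in 4 of 4 frames. That gives the smallest p that an exact 2-sided sign-flip permutation test allows with 4 frames, and the design cannot pass 0.05 (adjusted over 80 such tests, exact p = 0.25). Inner nuclear spots stood between at 3.27 ± 0.76, pigmented spots at 2.77 ± 0.60 and fibrous spots near the photoreceptor value at 2.17 ± 0.47. Some pairs without Gnb1 were also lower in photoreceptor than in ganglion spots in 4 of 4 frames, without overlap. Pde6b to Pde6a was 2.55 ± 0.67 against 6.21 ± 2.81, and Pde6g to Pde6a 1.39 ± 0.10 against 2.68 ± 0.47. Both ganglion ratios rest on 7, 13, 13 and 8 Pde6a UMIs. For Pde6b to Pde6a the groups nearly met, at 3.49 in photoreceptor spots of frame 3 and 3.50 in ganglion spots of frame 4. Sag to Gnat1 was 0.415 ± 0.051 against 0.737 ± 0.194. Cnga1 to Cngb1 overlapped, at 1.05 ± 0.25 against 1.19 ± 0.40.

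**Figure D4:**
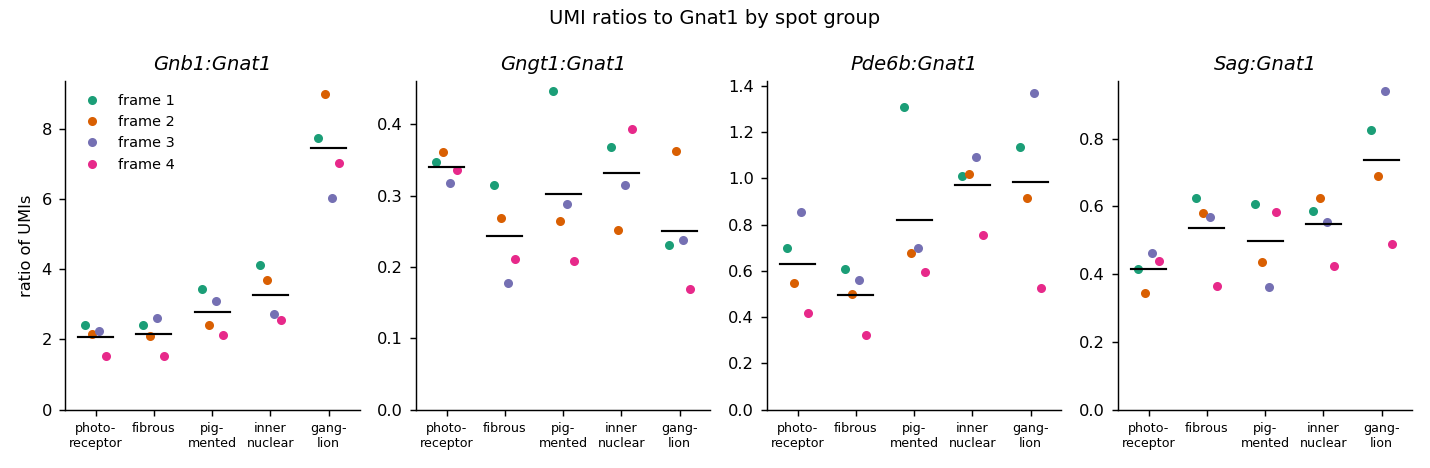
Ratios of UMIs of Gnb1, Gngt1, Pde6b and Sag to those of Gnat1 in 5 groups of spots, on linear axes that start at 0; points are the 4 frames and black lines are means. Gnb1:Gnat1 is 1.54 to 2.40 in photoreceptor spots and 6.01 to 8.98 in ganglion spots, while the frames of Gngt1:Gnat1 overlap between these groups (0.317 to 0.361 in photoreceptor spots and 0.170 to 0.362 in ganglion spots).

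A level carried along with rod RNA was computed for each member, as the level it would have in a spot group if it kept the photoreceptor ratio to the other 8 members. In ganglion spots Gnb1 was measured at 2421 ± 273 CPM, against 844 ± 346 CPM at that ratio. The measured level was 3.17 ± 1.05 times the carried one and above it in 4 of 4 frames, with the lowest frame at 2.11 times. The other 8 members were below their carried levels in ganglion spots on average, Sag in 2 of 4 frames and the others in all 4, with ratios from 0.32 ± 0.06 times for Pde6a and 0.34 ± 0.08 times for Gngt1 to 0.88 ± 0.28 times for Sag. Their carried levels are raised by Gnb1, which is 1 of the 8 genes each is set against. In fibrous spots Sag was the highest against its carried level, at 1.42 ± 0.39 times and above 1 in 3 of 4 frames. Gnb1 stood there at 1.16 ± 0.17 times, above 1 in 4 of 4 frames. Pigmented spots had Gnb1 at 1.25 ± 0.18 times, above 1 in 4 of 4 frames as well. In inner nuclear spots Gnb1 was at 1.32 ± 0.26 times, above 1 in 3 of 4 frames, and Pde6b at 1.22 ± 0.20 times, above 1 in all 4. Gnb1 was also above its carried level in epithelium spots (1.22 ± 0.14 times, 4 of 4 frames) and myelin spots (1.97 ± 0.97 times, 3 of 3). In muscle and blood spots it was above 1 in 3 of 4 frames. Ganglion spots held 20038 to 22442 CPM of ganglion markers and 2151 to 5158 CPM of photoreceptor markers.

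Over spots, cascade RNA was widespread but unevenly shared. At least 1 UMI was found for Gnb1 in 72.7 ± 3.1% of spots, for Gnat1 in 50.1 ± 2.0%, for Slc24a1 in 43.6 ± 2.9%, for Pde6b in 41.5 ± 7.7%, for Sag in 38.5 ± 2.9% and for Cnga1 in 13.2 ± 0.58%. After each spot was thinned to 250 UMIs, Gnb1 was in 62.9 ± 3.2% and Gnat1 in 40.3 ± 1.6% of spots. The frames lay between 30.6% and 48.8% for Pde6b, with frame 4 the lowest. Within photoreceptor spots Gnat1 was in 78.9 ± 3.7% after thinning (90.5 ± 3.8% before) and Cnga1 in 14.1 ± 2.9% (37.0 ± 1.8% before). Thinning left out 97 photoreceptor, 35 ganglion, 39 muscle and 34 epithelium spots with fewer UMIs.

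Spots of tissue that should hold no rods were not free of rod RNA. Gnat1 was in 35.2 ± 8.5% of muscle spots after thinning (39.8 ± 7.3% before) and in 30.4 ± 9.5% of epithelium spots (36.1 ± 6.8% before). In ganglion spots it was in 8.06 ± 2.16% (24.3 ± 5.8% before). Median depths before thinning were 313.5 UMIs in muscle, 463 in epithelium and 908 in ganglion spots. The share of Gnat1 in ganglion spots is below that of muscle spots and is not read as expression there. The source of this RNA, which also enters the folds and ratios against ganglion spots, was not tested. Gnb1 was in 41.1 ± 5.0% of ganglion spots, which is also below its 59.3 ± 8.6% of muscle spots, so its share of spots there is read no further.

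The members' RNA was concentrated in few spots. The 10% of spots with the most UMIs of a gene held 52.6 ± 0.96% of Gnb1, 59.5 ± 0.73% of Gnat1, 72.9 ± 1.5% of Gngt1 and 85.0 ± 2.1% of Cnga1, against 32.3 ± 1.2% of all UMIs in the deepest 10% of spots. Low counts raise this measure, so Cnga1 with 969 UMIs cannot be ranked by it against Gnb1 with 28788. Among photoreceptor spots, the share of a gene in the members' sum varied by more than counting allows for every member. The variance was 4.31 ± 0.65 times the counting variance for Slc24a1, 4.13 ± 0.42 times for Pde6b and 3.05 ± 0.81 times for Gnb1. It was 2.06 ± 0.50 times for Gngt1, 1.95 ± 0.40 for Sag, 1.80 ± 0.21 for Gnat1, 1.66 ± 0.15 for Pde6g and 1.46 ± 0.10 for Pde6a, with Cnga1 between these last members. The measure grows with a gene's count, yet Gnat1 with 7784 UMIs in these spots lay below Slc24a1 with 5115 and Pde6b with 4990.

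When spots were grouped only by their number of photoreceptor marker UMIs, the cascade rose with every step. Spots with 0, 1 to 4, 5 to 9, 10 to 19 and 20 or more marker UMIs numbered 728, 1562, 672, 645 and 996, with median depths of 205, 433, 519, 585 and 1054.5 UMIs. The members' sum was 4299 ± 633, 5505 ± 981, 10032 ± 1198, 21372 ± 3610 and 41405 ± 2256 CPM in these groups. It was 9.63-fold higher at the top than at 0, and it rose at each step in 4 of 4 frames. Since markers and depth rise together, spots without marker UMIs were also the shallowest, and the part of depth in the gradient was not tested.

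The members did not rise alike. Gnat1 had 447 ± 117 CPM in spots without marker UMIs and 7222 ± 964 CPM in spots with 20 or more, 16.2-fold, rising at each step in 4 of 4 frames. Gngt1 rose 18.2-fold, Sag 14.0-fold, Pde6a 12.9-fold, Pde6g 11.4-fold, Slc24a1 10.3-fold, Cnga1 9.98-fold and Pde6b 8.93-fold between the same groups. These are folds of the mean levels. At 0, Gngt1 had 70.9 to 289 CPM and Cnga1 10.1 to 96.4 CPM. The log2 fold taken in each frame was 4.44 ± 0.83 for Gngt1 and 3.68 ± 1.31 for Cnga1. It was 4.04 ± 0.20 for Gnat1 and 2.79 ± 0.25 for Gnb1. By this measure Cnga1 stood above Pde6g (3.54) and Slc24a1 (3.39), so the order of the members above Gnb1 is not firm. The steps rose in all 4 frames for Sag, Pde6g and Pde6b, in 3 for Gngt1, Pde6a and Slc24a1 and in 1 for Cnga1. Gnb1 had the smallest rise, 6.92-fold, with 2146 ± 271 CPM at 0 and 14858 ± 1876 CPM at 20 or more. Gnb1 therefore made up 50.1 ± 2.9% of the members' UMIs in spots without marker UMIs. Ganglion markers fell across the same groups, with 11254 ± 1214 CPM at 0 and 1644 ± 679 CPM at 20 or more. The paralog Gnb2 stayed low throughout, at 71.1 ± 56.4 CPM at 0 and 42.7 ± 20.9 CPM at 20 or more.

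**Figure D5:**
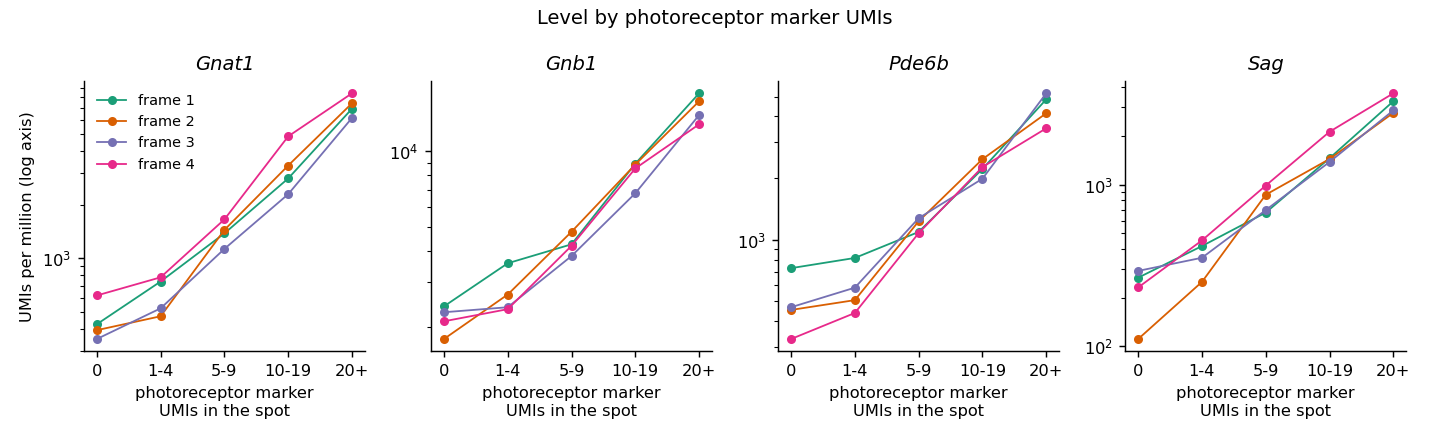
CPM of Gnat1, Gnb1, Pde6b and Sag in spots grouped by their photoreceptor marker UMIs, on log axes, with 1 line for each of the 4 frames. All 4 genes rise at every step in all 4 frames, and Gnb1 rises least (6.92-fold).

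Genes that were neither members nor markers were ranked by how closely their levels followed the members' sum over 20 pools, the 5 larger spot groups of each frame. Among 2632 genes with at least 200 UMIs, Cplx4, which encodes a complexin of retinal ribbon synapses, followed it most closely (Spearman correlation 0.988). Pdc and the recoverin gene Rcvrn came next at 0.953 each, followed by the cyclase activator genes Guca1b at 0.949 and Guca1a at 0.944. Lbhd1, Samd7, Abca4 and Smim40 were also among the first 10, at 0.944 to 0.931. For single members, Gnat1 was followed most closely by Rcvrn (0.980), Gngt1 by Abca4 (0.977), Pde6g by Cplx4 (0.977), Slc24a1 by Guca1b and Cnga1 by Elovl4 (0.941). Pairs of members had correlations from 0.893 for Gnb1 with Slc24a1 to 0.986 for Gnat1 with Gngt1. Pools of a frame share a library, and all pools share the grouping, so these values describe the ranking and carry no test.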

How the data were processed

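Visium libraries of 4 frames were analysed as deposited. The authors made the counts, whole numbers of UMIs per gene and spot, with Space Ranger 2.0.0 per the file headers, and mm10 is the build in the submitters' processing notes. No source read here names the annotation release or the alignment settings. The number of spots in each matrix equals the number marked as tissue in the deposited slide alignment, and all were used. The alignment pairs no position with a barcode, so spot positions were not used here.

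CPM scale a gene's UMIs to the total of its frame or spot group. A spot took the class with the highest z, the excess of its marker UMIs over the expected number divided by the square root of that number, if z was at least 2. UMIs were summed per frame and spot group (at least 10 spots), the markers entered neither edgeR's totals nor its tests, and edgeR 4.0.16 in R 4.3.3 was applied (filterByExpr with a minimum count of 10, TMM, robust quasi-likelihood test, frame as block, Benjamini-Hochberg over all genes tested, limit 0.05). The pairing is by section: the paired spot groups lie in 1 frame. The correlation of a pair's deviations from the group means was 0.04 to 0.16. Standard errors are those of the log2 fold change. Ratios were compared by exact permutation. All p-values rest on 4 frames. In edgeR a gene's spread is moderated by that of all genes tested, so its p-values do not measure the gene's own spread between frames alone. Cnga1 against inner nuclear spots, for example, had an SD of the log2 fold change between frames of 1.18, beside an SE of 0.34. The edgeR step was first tested on simulated data.

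All 9 members are named. Other pathway genes are given as counts per list, naming up to 3 per list with the lowest p and direct partners or paralogs of members (Cngb1, Gnat2, Gnb3, Pde6h, Gnb2 among them). A gene that this rule selects is not reported here. The 10 genes most like the sum and the 3 most like each member were ranked, and the closest are named. Gnb5, Slc24a2, Gngt2, Gng5 and Pde6d were named after their values were seen. The members, markers and lists were chosen with earlier results of these data known. DESeq2 1.42.0, other filters, spot limits, marker lists and leaving out frames were tried as alternatives.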

Additional observations from a re-analysis of the deposited data

Results flagged for a closer look

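In 93 sets of 4 frame values, 6 had 1 frame far from the other 3 by Dixon's test for outliers, and chance alone would give about 1 in 20. Of these, 3 lie in the inner nuclear spots of frame 3, where the members' sum was 11361 CPM, Pde6b 1588 CPM and Cnga1 323 CPM, each above the other frames. The inner nuclear spots of frame 3 also held the most photoreceptor marker RNA, 11334 CPM against 5162 to 5789 CPM in the other frames, and they numbered 45. Gnat1 in the photoreceptor spots of frame 3 was low, at 7110 CPM against 8514 to 8677 CPM in the other frames. Gngt1 in the pigmented spots of frame 2 was high, at 935 CPM against 674 to 693 CPM. The ratio of Pde6g to Pde6a over all spots was high in frame 2, at 1.66 against 1.46 to 1.48.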

How the results depend on the processing

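All 9 members kept their direction and passed the test in each of the 3 comparisons under every setting run: DESeq2, no filter on low counts, no replicate block, members left out of the TMM factors, z limits of 1 and 3, class by ratio to expectation, spots with at least 200 UMIs, leaving out each frame, and 2 marker lists chosen after seeing the data (photoreceptor markers without Aipl1 and Nr2e3, ganglion markers without Nefl). With no filter the median log2 fold change of the members was 3.14 against inner nuclear and 2.00 against pigmented spots (2.66 and 1.53 with the filter). That setting moved the median of all genes there to 0.28 and 0.25. It raised the genes lower in photoreceptor than in ganglion spots to 1600, where 959 were lower with the filter. Against inner nuclear spots, 57.0% of called genes were higher without the filter and 46.9% with it. Leaving out each frame in turn gave member medians of 2.57 to 3.25 against inner nuclear spots, and 205 to 400 genes higher in photoreceptor than in pigmented spots, the 205 without frame 3. Without the replicate block 359, 823 and 325 genes were higher against inner nuclear, ganglion and pigmented spots (354, 841 and 336 with it), and the block changed no member's call. Gnat1 was found in 30.3% of spots thinned to 150 UMIs and 49.8% of those thinned to 400, which follows from the depth itself. Without Aipl1 and Nr2e3 the members' sum in spots with at least 20 marker UMIs was 47661 CPM (41405 with them); fewer spots reach the limit with fewer markers. Of genes outside the members, 5 lost a call under at least 1 of 7 settings, 11 lost calls in all and 6 of them of Gngt2, without a change of sign. The levels and subunit ratios over all spots and in photoreceptor spots moved by less than the SD between frames in the settings run. Ratios per coding length were not run, since no table of lengths was at hand. Depth limits Cnga1 most, with 19 UMIs in ganglion spots, and then Pde6a, with 41.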
